A study of Mus musculus with 2 samples.

Results

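The translation initiation and elongation factors of adipose tissue macrophages (ATM) are described here, as 44 mouse genes named for their known function. Of the 20330 genes in the deposited table, 43 were members of this set, and Eif4g1 was not analysed here. A total of 42 members reached at least 1 FPKM (fragments per kilobase of transcript, scaled to the mapped fragments of the library) in at least 1 library, as did 10297 genes in all, while Eif2b3 was listed at 0 in both libraries.

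ATM, the macrophages of fat tissue, were sorted by F4/80 and CD11b from the visceral fat of C57BL/6 mice given a high-fat diet for 12 weeks from 4 weeks of age. The WT library came from hMRP8cre-;Hif-1αfl/fl;ApoE-/- mice and the KO library from hMRP8cre+;Hif-1αfl/fl;ApoE-/- mice, so that both genotypes were labelled ApoE-/- and carried the floxed allele of Hif-1α, the member of the HIF-1 dimer that accumulates when oxygen is short. The Cre recombinase was driven by the human MRP8 (S100A8) promoter, which is active in myeloid cells and not in macrophages alone. The comparison asked how gene expression of ATM differed when Hif-1α was deleted in the myeloid lineage. There was 1 library for each genotype, and the number of animals in each is not given in the sources used here. The differences below are therefore between 2 libraries, without replicates, and were not tested.

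Translation of a capped mRNA begins when eIF4E binds the cap and, with the scaffold eIF4G and the helicase eIF4A, recruits a small ribosomal subunit that carries eIF1, eIF3, eIF5 and the ternary complex of eIF2, GTP and initiator tRNA. eIF2B recharges eIF2 with GTP after each round, and phosphorylation of eIF2 in stressed cells blocks this step. The 4E-binding proteins (4E-BPs) hold eIF4E away from eIF4G until the kinase complex mTORC1 phosphorylates them. Once the large subunit has joined, eEF1A delivers aminoacyl-tRNAs, eEF2 moves the ribosome along the mRNA, and eIF5A, which carries the modified lysine hypusine, helps the ribosome through difficult stretches. Hypusinated eIF5A is known in macrophages for promoting the synthesis of mitochondrial proteins during alternative activation.

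The most abundant factors had nearly the same level in both libraries, both enzymes that make hypusine were higher in the KO library, and 3 of the 5 eIF2B subunits were lower, 1 of them (Eif2b4) through a value listed at 0. Difference is given throughout as log2(FPKM + 1), KO minus WT, and genes at 3-fold or more on this scale were called higher or lower, the fold that the study also used. By this count 2 members were higher (Dhps and Dohh), 6 were lower (Eif1b, Eif2b2, Eif2b4, Eif2b5, Eif3m and Eif4e2) and 34 lay between. The 8 members past 3-fold were 19.0% of those tested, against 27.3% of all 10297 genes tested. In each direction, 13.6% of all genes were higher and 13.7% were lower, beside 4.76% and 14.3% of the members. Among genes with at least 1 FPKM in both libraries, 11.5% passed 3-fold (5.66% higher and 5.89% lower), beside 7 of 41 members, or 17.1% (2 higher and 5 lower). The members thus lay below the share of all genes under one filter and above it under the other, and neither count sets them apart from other genes. The median difference was −0.01 over the members, with 21 above 0 and 21 below, and 0.03 over all genes tested.

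**Figure D1:**
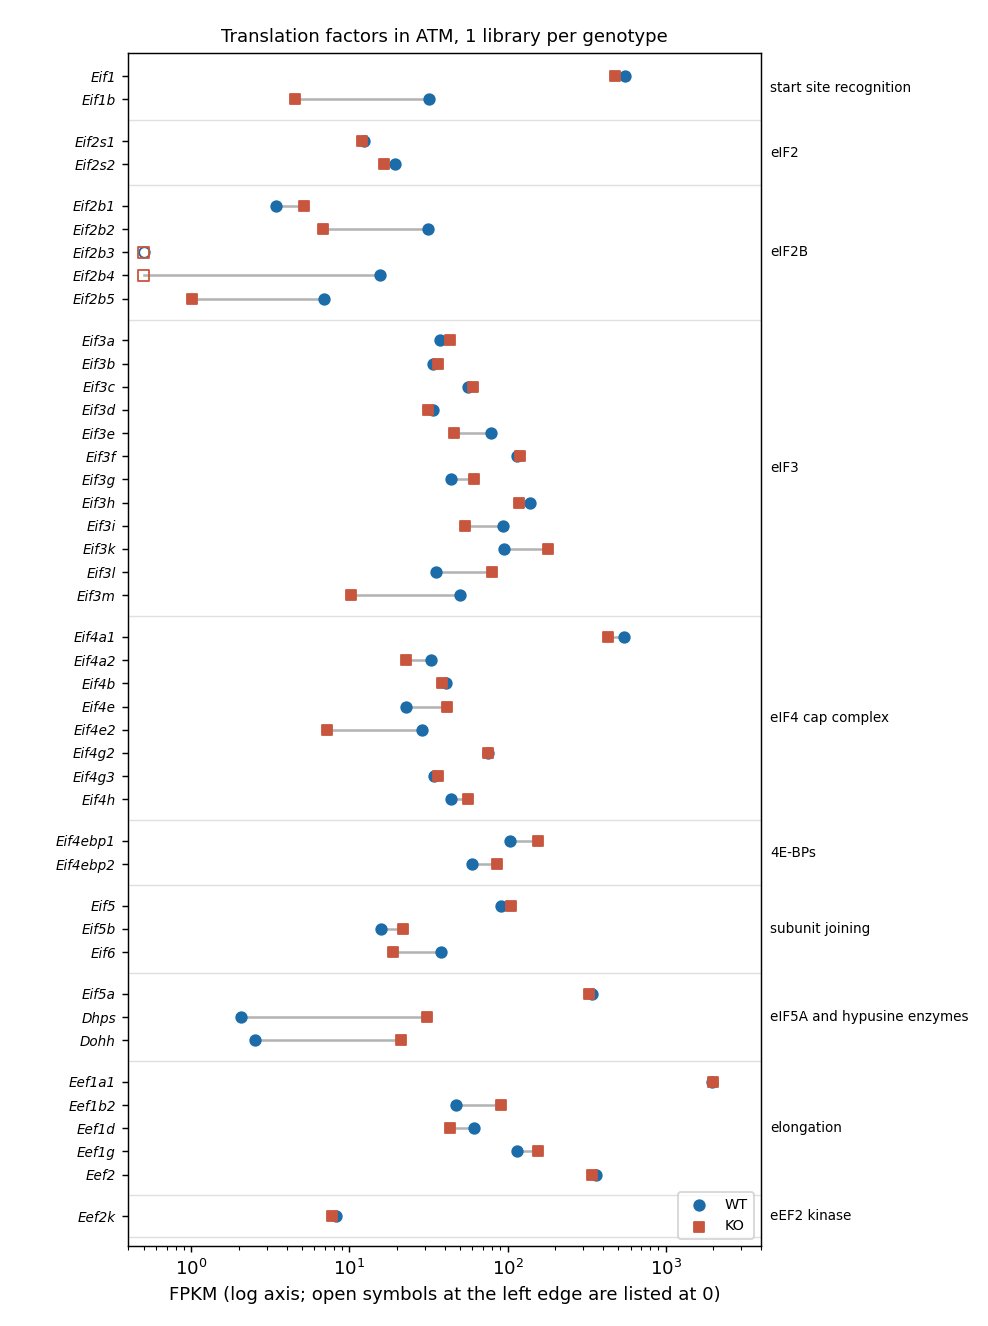
FPKM of the 43 translation factors in the table, on a log axis, by role, with a circle for the WT library and a square for the KO library (1 library each, no error bar). Open symbols at the left edge are listed at 0. The 2 symbols of the abundant factors such as Eef1a1 (1960 and 1990 FPKM) nearly coincide, while those of Dhps (2.07 and 30.9 FPKM) and Dohh (2.52 and 21.1 FPKM) lie far apart.

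The hypusine pathway held the 2 members that were higher in the KO library. Dhps (deoxyhypusine synthase) moves part of spermidine onto one lysine of eIF5A, and Dohh (deoxyhypusine hydroxylase) then completes hypusine. That lysine is encoded by codon 50 of Eif5a, shown in capitals within coding bases 121 to 174 (codons 41 to 58, from the GENCODE M21 transcript on GRCm38), because it is the substrate of both enzymes.
Eif5a: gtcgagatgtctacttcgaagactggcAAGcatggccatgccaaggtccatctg

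Dhps (ENSMUSG00000060038, chr8:85071757-85075162, GRCm38, plus strand) had 2.07 FPKM in the WT library and 30.9 FPKM in the KO library. This was a difference of 3.37, the highest of any member, and a 14.9-fold ratio. From the depth estimated for each library, these values stood for about 16 and 307 fragments, and the 95% exact counting interval of the ratio was 9.12 to 26.7. Dohh (ENSMUSG00000078440, chr10:81384428-81388352, plus strand) had 2.52 FPKM in the WT library and 21.1 FPKM in the KO library, a difference of 2.65 and a ratio of 8.4 with an interval of 5.07 to 14.2 from about 18 and 189 fragments. Both intervals cover counting error only and say nothing of the spread between animals or between library preparations. Eif5a itself, the protein that both enzymes modify, had 341 FPKM in the WT library and 328 FPKM in the KO library, a difference of −0.05. The enzymes were thus higher beside a nearly equal and far larger level of their substrate mRNA. The closely related Eif5a2 was listed at 0 in both libraries.

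Both enzyme genes overlap another annotated gene. Wdr83, which lies on the other strand and shares the last 128 bases of the Dhps locus, had 0.151 FPKM in the WT library and 9.17 FPKM in the KO library and so moved with it. Strand marking is not named for these libraries, so reads from the 2 genes may not be told apart where they overlap, and the part of this overlap in the Dhps values was not tested. Dohh shares 3887 bases, nearly its whole locus, with the annotated readthrough gene Gm48551 on the same strand, which was not analysed here, so the Dohh value may include its reads.

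The 250 bases before the RefSeq start (GRCm38.p6) of the 2 higher genes and of a pair of lower genes of the eIF2B complex are printed because the KO library came from mice with a deleted HIF-1 subunit. They are Dhps at chr8:85071507-85071756, Dohh at chr10:81384184-81384433, Eif2b2 at chr12:85219231-85219480 and Eif2b5 at chr16:20498567-20498816, each on the plus strand. Capitals mark the core of the HIF binding element, searched on both strands as ACGTG and with the variant first base as GCGTG. They also mark the core of the ETS family of factors, searched on both strands as CCGGAA. The E-box, bound by other factors, contains the form that begins with A.
Dhps: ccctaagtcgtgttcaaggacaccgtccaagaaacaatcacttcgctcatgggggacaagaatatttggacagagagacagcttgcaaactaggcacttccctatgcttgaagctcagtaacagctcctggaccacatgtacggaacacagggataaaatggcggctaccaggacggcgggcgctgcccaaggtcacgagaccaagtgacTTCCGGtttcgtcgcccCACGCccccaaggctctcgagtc
Dohh: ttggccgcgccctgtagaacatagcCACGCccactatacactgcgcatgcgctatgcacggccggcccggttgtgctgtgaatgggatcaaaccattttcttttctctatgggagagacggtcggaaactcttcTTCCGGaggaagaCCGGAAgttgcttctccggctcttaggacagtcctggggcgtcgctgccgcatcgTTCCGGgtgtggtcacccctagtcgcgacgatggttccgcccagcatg
Eif2b2: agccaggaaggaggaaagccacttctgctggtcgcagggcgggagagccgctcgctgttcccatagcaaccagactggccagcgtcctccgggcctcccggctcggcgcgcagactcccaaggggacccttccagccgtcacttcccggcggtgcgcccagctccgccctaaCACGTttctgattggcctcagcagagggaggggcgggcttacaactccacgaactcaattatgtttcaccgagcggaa
Eif2b5: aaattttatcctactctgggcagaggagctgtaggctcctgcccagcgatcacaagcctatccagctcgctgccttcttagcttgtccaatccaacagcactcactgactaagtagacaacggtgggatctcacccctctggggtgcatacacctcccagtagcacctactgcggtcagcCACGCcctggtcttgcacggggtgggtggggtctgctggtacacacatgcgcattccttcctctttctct

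The windows of Dhps, Dohh, Eif2b2 and Eif2b5 each held 1 HIF core, in genes that differed in opposite directions. Of the other lower members, Eif1b held 4, while Eif2b4, Eif3m and Eif4e2 held none. The window of Eif2b4 lies in Snx17 and is not printed. The ETS core was found once in the Dhps window, 3 times in that of Dohh, and in neither of the eIF2B windows. Of the other lower members, Eif3m held 3 ETS cores, Eif1b held 1, Eif4e2 held 1 over the 3 start windows of its RefSeq entries, and Eif2b4 held none. A promoter entry was found for 34 members, and 73.5% of these held a HIF core, beside 62.2% of the 8120 genes past the filter with an entry. Among the 8 members past 3-fold it was 62.5%, and among the 26 short of 3-fold it was 76.9%. An ETS core stood in 41.2% of the 34 members and in 25.9% of the 8120 genes, and in 62.5% of the 8 members past 3-fold and 34.6% of the 26 short of it. Such matches are letters in a window and not measured binding sites.

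eIF2B, the exchange factor that reloads eIF2, was the role group with the most members lower in the KO library. The FPKM of its subunits summed to 57.5 in the WT library and 13.0 in the KO library, and the median difference of the 4 subunits past the filter was −2.01. With at least 1 FPKM in both libraries, 2 of 3 subunits were lower, beside 5.89% of all genes, and the median was −1.98. That share is not matched for level. In either direction, 20.6% of genes at the level of Eif2b2 and 49.0% at that of Eif2b5 passed 3-fold. Eif2b2 and Eif2b5 lay within the 5th to 95th percentile of genes at their level. Eif2b5 entered the count with a KO value close to the cutoff. Eif2b2, the beta subunit (ENSMUSG00000004788, chr12:85219481-85226628, plus strand), had 31.4 FPKM in the WT library and 6.84 FPKM in the KO library. The difference was −2.05, and the WT level was 4.6-fold the KO level with a counting interval of 3.59 to 5.95. Eif2b5, the catalytic epsilon subunit (ENSMUSG00000003235, chr16:20498817-20509323, plus strand), had 6.9 FPKM and 1.01 FPKM. Its difference was −1.98, and the ratio of 6.84 had the wide interval of 4.21 to 11.9 because the KO value stood for about 19 fragments.

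Eif2b4, the delta subunit (ENSMUSG00000029145, chr5:31187558-31193430, minus strand), had 15.7 FPKM in the WT library, or about 177 fragments, and was listed at 0 in the KO library. No fold is given against 0, since an exact 0 in such a table can be a failed estimate, and the difference of −4.06 is set by the WT level and the pseudocount. Its neighbour Snx17, which overlaps it by 204 bases on the other strand, had 11.4 FPKM in the WT library and 22.5 FPKM in the KO library, and moved in the other direction. How reads in the overlap were assigned was not tested. Eif2b1, the alpha subunit, went the other way within the complex at 3.42 FPKM in the WT library and 5.18 FPKM in the KO library, a difference of 0.48. The gamma subunit Eif2b3, listed at 0 in both libraries, could not be compared.

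The subunits of eIF2 itself did not share this pattern. Eif2s1, the alpha subunit that the stress kinases phosphorylate, had 12.3 FPKM in the WT library and 12.0 FPKM in the KO library, a difference of −0.03. Eif2s2, the beta subunit, had 19.3 FPKM and 16.6 FPKM, a difference of −0.21. Both were short of 3-fold. The X-linked gamma subunit gene Eif2s3x, not a member of the set, had 16.1 FPKM and 16.6 FPKM.

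eIF1 keeps the scanning ribosome from starting at the wrong codon, and the mouse has 2 closely related genes for it. Eif1 was among the most abundant members, with 557 FPKM in the WT library and 480 FPKM in the KO library, a difference of −0.22. Eif1b (ENSMUSG00000006941, chr9:120492232-120495330, plus strand) had 31.9 FPKM in the WT library and 4.55 FPKM in the KO library. The difference was −2.57, and the WT level was 7.02-fold the KO level with a counting interval of 4.88 to 10.4. The lower level of Eif1b thus stood beside a level of Eif1 that was short of 3-fold and far larger in both libraries.

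The coding sequences of Eif1 and Eif1b have the same length of 342 bases and are 81.3% identical, with 25 bases as the longest run without a difference. Their first 120 coding bases (GENCODE M21, GRCm38) are printed to show how far reads can tell the genes apart, with the 19 bases that differ in capitals.
Eif1: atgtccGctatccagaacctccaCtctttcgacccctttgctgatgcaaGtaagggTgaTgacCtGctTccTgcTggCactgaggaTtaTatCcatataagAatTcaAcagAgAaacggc
Eif1b: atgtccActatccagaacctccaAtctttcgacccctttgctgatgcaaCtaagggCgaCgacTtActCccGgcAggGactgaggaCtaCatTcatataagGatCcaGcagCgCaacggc

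Reads that fall within such a shared run could be assigned to either gene, so the value of Eif1b, the less abundant of the pair, is uncertain to that degree. Other related members are less alike in their coding sequence. Eif4a1 and Eif4a2 were 78.3% identical with a longest shared run of 20 bases, Eif4ebp1 and Eif4ebp2 66.7% with 14 bases, and Eif4e and Eif4e2 51.8% with 11 bases.

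**Figure D2:**
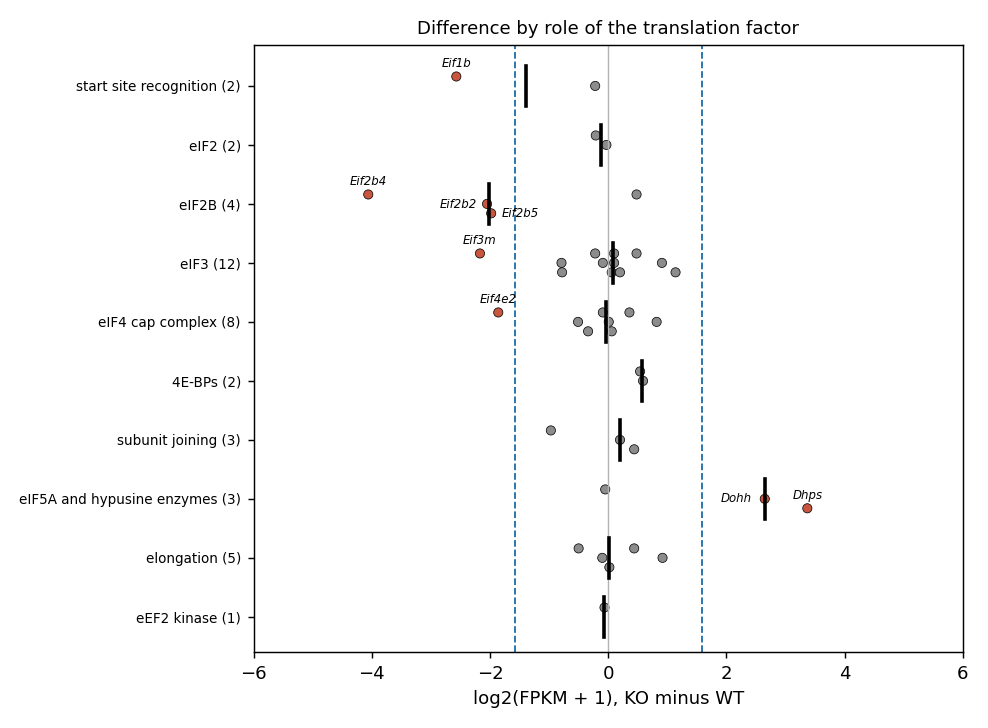
Difference of each of the 42 translation factors past the filter, as log2(FPKM + 1), KO minus WT, by role, with the number of genes in parentheses. Black bars are medians, dashed lines mark 3-fold and red points lie past it. The red points are Dhps and Dohh on the right and Eif1b, Eif2b2, Eif2b4, Eif2b5, Eif3m and Eif4e2 on the left.

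eIF3, the largest initiation factor, bridges the small ribosomal subunit and the cap complex. Its 12 measured subunits summed to 813 FPKM in the WT library and 842 FPKM in the KO library, and their median difference was 0.08. The core of eIF3 is an octamer of the a, c, e, f, h, k, l and m subunits. Of these, Eif3a had 37.5 FPKM in the WT library and 43.0 FPKM in the KO library, Eif3c had 56.5 FPKM and 60.8 FPKM, and Eif3f had 115 FPKM and 120 FPKM, with differences of 0.20, 0.10 and 0.06. Eif3h had 139 FPKM and 119 FPKM, a difference of −0.22. These 4 differed little between the libraries.

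Eif3m (ENSMUSG00000027170, chr2:104999656-105017080, minus strand), which sits beside the f and h subunits in the octamer, was the eIF3 subunit past 3-fold. It had 50.2 FPKM in the WT library and 10.3 FPKM in the KO library, a difference of −2.17, and the WT level was 4.85-fold the KO level with a counting interval of 3.8 to 6.29. Ccdc73, which overlaps it, was listed at 0 in both libraries. Eif3e was also lower, short of 3-fold, at 78.9 FPKM and 45.6 FPKM, a difference of −0.78.

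Eif3k and Eif3l, which bind each other at the edge of the octamer, were both higher in the KO library and short of 3-fold. Eif3l had 35.5 FPKM in the WT library and 79.6 FPKM in the KO library, a difference of 1.14 and a ratio of 2.24 with a counting interval of 2.0 to 2.52. Eif3k had 95.5 FPKM and 180 FPKM, a difference of 0.91 and a ratio of 1.89 with an interval of 1.69 to 2.12. By the estimated fragment numbers, counting error was smaller than these differences. The spread between animals and between library preparations is not known.

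Outside the octamer, Eif3b had 33.7 FPKM in the WT library and 36.3 FPKM in the KO library, a difference of 0.10. Eif3d, which can itself bind the cap, had 33.7 FPKM and 31.5 FPKM, a difference of −0.09. Eif3g, which binds RNA, had 43.8 FPKM and 61.5 FPKM, a difference of 0.48, and Eif3i had 93.4 FPKM and 53.5 FPKM, a difference of −0.79. The last 2 moved in opposite directions and both were short of 3-fold. Subunits of the same complex therefore differed from −2.17 to 1.14 between the libraries, around a summed level that was nearly equal.

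The cap complex had a median difference of −0.04 over 8 members. Eif4e, the cap-binding protein, had 22.9 FPKM in the WT library and 41.3 FPKM in the KO library, a difference of 0.82 and a ratio of 1.8 with a counting interval of 1.43 to 2.29. Its relative Eif4e2 (ENSMUSG00000026254, chr1:87213914-87240488, plus strand), which binds the cap without joining eIF4G in normoxia and has been described in cap-dependent translation during hypoxia, went the other way. It had 28.7 FPKM in the WT library and 7.17 FPKM in the KO library, a difference of −1.86, and the WT level was 4.0-fold the KO level with an interval of 3.17 to 5.07. In the WT library Eif4e2 was thus above Eif4e, and in the KO library it was below it. A further relative that is no member, Eif4e3, had 24.5 FPKM and 33.2 FPKM.

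The helicase genes were both slightly lower. Eif4a1, the main helicase, had 548 FPKM in the WT library and 433 FPKM in the KO library, a difference of −0.34, and its relative Eif4a2 had 32.9 FPKM and 22.8 FPKM, a difference of −0.51. Eif4b and Eif4h, which stimulate the helicase, had 40.7 FPKM and 38.3 FPKM, and 43.6 FPKM and 56.2 FPKM, with differences of −0.09 and 0.36. None of these 4 reached 3-fold. The scaffold Eif4g3 had 34.5 FPKM in the WT library and 36.1 FPKM in the KO library, a difference of 0.06, and Eif4g2, a scaffold without an eIF4E site, had 74.9 FPKM and 75.2 FPKM, a difference of 0.01.

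The 4E-BPs, which hold eIF4E inactive, were both higher by similar amounts and short of 3-fold. Eif4ebp1 had 103 FPKM in the WT library and 156 FPKM in the KO library, a difference of 0.59 and a ratio of 1.51 with a counting interval of 1.41 to 1.62. Eif4ebp2 had 59.2 FPKM and 86.3 FPKM, a difference of 0.54 and a ratio of 1.46 with an interval of 1.36 to 1.56. The third 4E-BP, Eif4ebp3, belongs to the wider pathway lists below and had 9.38 FPKM in the WT library and 67.3 FPKM in the KO library, a difference of 2.72. It lies 5146 bases downstream of Ankhd1 on the same strand, which had 15.1 FPKM and 23.4 FPKM, and transcripts that read from one gene into the other were not told apart here.

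The factors of subunit joining and ribosome assembly stayed short of 3-fold. Eif5, which triggers GTP hydrolysis by eIF2, had 91.2 FPKM in the WT library and 105 FPKM in the KO library, a difference of 0.20. Eif5b, the GTPase of subunit joining, had 15.8 FPKM and 21.8 FPKM, a difference of 0.44. Eif6, which keeps the large subunit from joining too early, was the lower of the 3 in the KO library, at 37.7 FPKM in the WT library and 18.8 FPKM in the KO library. Its difference was −0.97, and the WT level was 2.01-fold the KO level with a counting interval of 1.68 to 2.41.

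The elongation factors held the most abundant mRNA of the set, and none of the 5 passed 3-fold. Eef1a1, which delivers aminoacyl-tRNA, had 1960 FPKM in the WT library and 1990 FPKM in the KO library, a difference of 0.02. It alone made up 35.4% of the members' summed FPKM in the WT library and 36.4% in the KO library. Eef2, the translocase, had 365 FPKM and 340 FPKM, a difference of −0.10. Its kinase Eef2k, which slows elongation, had 8.18 FPKM and 7.78 FPKM, a difference of −0.07. The factor that delivers tRNA, the translocase and the kinase that restrains it were thus all nearly level.

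The subunits of eEF1B, which reloads eEF1A with GTP, differed more. Eef1b2, its alpha subunit, had 47.3 FPKM in the WT library and 90.5 FPKM in the KO library, a difference of 0.92 and a ratio of 1.91 with a counting interval of 1.69 to 2.17. Eef1g, the gamma subunit, had 114 FPKM and 155 FPKM, a difference of 0.44, and Eef1d, the delta subunit, had 61.8 FPKM and 43.5 FPKM, a difference of −0.50. Its neighbour Ndufs1, which meets Eef1b2 head to head with 9 shared bases, had 4.82 FPKM and 12.3 FPKM and so moved in the same direction.

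The size of the difference went with the level of the gene. All 20 members with a mean of at least 50 FPKM over the libraries lay between −0.79 and 1.14, short of 3-fold, which 3.46% of the 1415 genes at that level passed. The 8 members past 3-fold had mean FPKM between 3.95 and 30.3, with a median of 17.2, and the other 34 a median of 58.1. Between 10 and 20 FPKM, 5 of the 8 members passed 3-fold, beside 20.6% of the 1861 genes in that range. Between 20 and 50 FPKM it was 1 of 10 members, beside 11.7% of genes. Between 5 and 10 FPKM, and again between 2 and 5 FPKM, it was 1 of 2 members, beside 32.4% and 49.0% of genes. The range of 10 to 20 FPKM held both higher members and 3 of the lower ones. These counts rest on few members and 1 library a genotype, and were not tested.

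**Figure D3:**
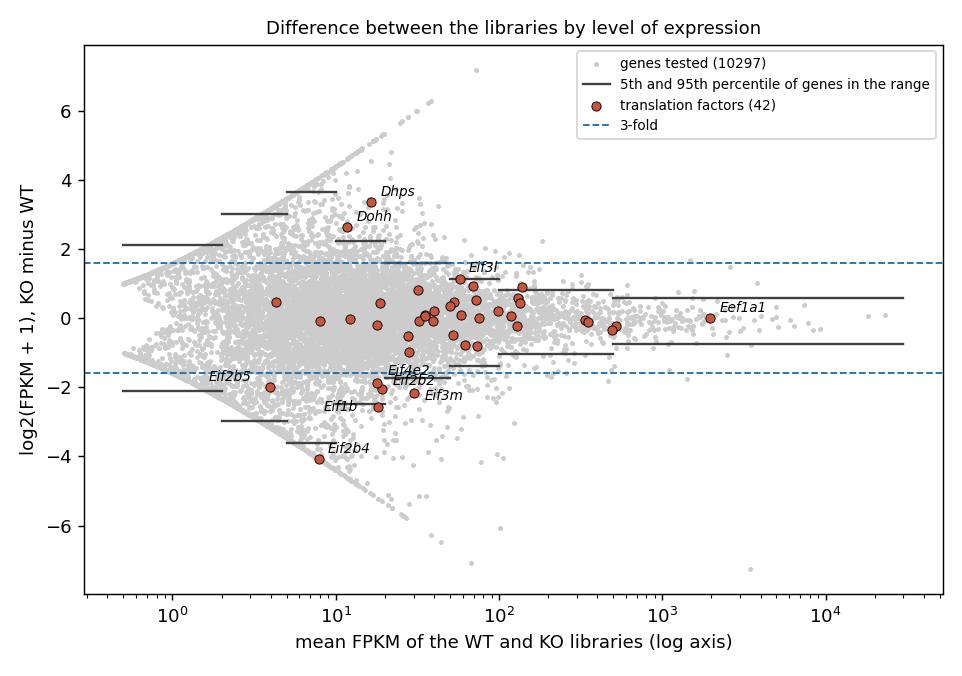
Difference as log2(FPKM + 1), KO minus WT, against mean FPKM of both libraries on a log axis, for the 10297 genes tested (grey) and the 42 translation factors past the filter (red). Dark lines give the 5th and 95th percentile of genes in each range of level and dashed lines mark 3-fold. Dhps, Dohh, Eif1b, Eif2b4, Eif3m and, narrowly, Eif3l and Eif3k (the latter unlabelled) lie outside the dark lines, and Eif2b2, Eif2b5 and Eif4e2 are past 3-fold but inside them.

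Dhps and Dohh lay above the 95th percentile of the genes in their range of level, which was 2.22. Eif1b lay below the 5th percentile of that range, at −2.47, while Eif2b2 and Eif4e2 did not. Eif3m lay below the 5th percentile for 20 to 50 FPKM, which was −1.72, and Eif2b4 below that for 5 to 10 FPKM, which was −3.60. Eif3l and Eif3k, though short of 3-fold, lay just above the 95th percentile of their ranges, 1.13 for 50 to 100 FPKM and 0.82 for 100 to 500 FPKM. Eif2b5 lay inside the range of its level, where the 5th percentile was −2.98. In all, 7 of 42 members were outside these percentiles, which by construction leave out 10% of the genes.

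The wider pathway was read from lists of 95 other genes of translation and its control, of which 81 were tested. Of these 81 genes, 14 were higher and 8 were lower, or 27.2% in all, beside 27.3% of all genes tested. With at least 1 FPKM in both libraries, 5 were higher and 1 was lower of 63, beside 5.66% and 5.89% of all genes. The median difference of the 81 genes was 0.24. Among the 22 other initiation factors tested, 4 were higher and 2 lower, and with at least 1 FPKM in both libraries 2 of 17 were higher and 0 lower. The higher genes were Eif1ad, Eif2d, Eif4ebp3 and Paip1. The lower genes were Dhx29, at 7.5 FPKM and 0.609 FPKM, and Mcts1, at 19.9 FPKM and listed at 0 in the KO library. Eif1ad, an eIF1A-like protein, had 4.82 FPKM in the WT library and 17.0 FPKM in the KO library, and Eif1a, which works beside eIF1 in scanning, had 24.3 FPKM and 74.4 FPKM with a difference of 1.57, just short of 3-fold on this scale. Eif1ax, a second gene for the same factor, went the other way, at 3.24 FPKM and 0.518 FPKM.

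The stress pathway that acts on eIF2 and eIF2B had no gene past 3-fold among 9 tested, with a median difference of 0.39. Of all genes, 27.3% passed, and 11.5% of those with at least 1 FPKM in both libraries, as all 9 had. Atf4, the transcription factor whose translation rises when eIF2B is held back, had 364 FPKM in the WT library and 590 FPKM in the KO library, a difference of 0.70. Its target Ddit3 had 39.7 FPKM and 62.6 FPKM, a difference of 0.64, and the phosphatase subunits Ppp1r15a and Ppp1r15b had differences of 0.39 and 1.0. Among the kinases of eIF2, Eif2ak3 had a difference of −0.25 and Eif2ak4 one of 0.87. Atf5, of the same list, went the other way at 5.5 FPKM and 3.75 FPKM, a difference of −0.45. In all, 6 of the 9 were above 0, beside 51.3% of all genes. Trib3, a further target, was listed at 0 in both libraries.

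Among the 13 genes of mTORC1 and the MNK kinases, which act on the 4E-BPs and eIF4E, 3 were higher and 0 lower past 3-fold, beside 13.6% of all genes that were higher. With at least 1 FPKM in both libraries it was 1 of 11 genes, Akt1s1, beside 5.66% of all genes. Akt1s1, an inhibitory partner of mTORC1, had 1.8 FPKM in the WT library and 20 FPKM in the KO library, a difference of 2.90. Deptor, another inhibitor, and Mlst8, a core subunit, were listed at 0 in the WT library and had 4.51 FPKM and 8.22 FPKM in the KO library. Mtor and its partner Rptor were lower, with differences of −1.02 and −1.38, both short of 3-fold on this scale. The plain ratio of Rptor, at 6.45 FPKM and 1.86 FPKM, was 3.48-fold. Tsc2, an inhibitor upstream of mTORC1, was also lower at 17.0 FPKM and 6.72 FPKM, a difference of −1.22, and the S6 kinase Rps6kb1 was higher with a difference of 1.23, both short of 3-fold.

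The list of aminoacyl-tRNA synthetases also held Aimp1 and Aimp2, scaffold proteins of the synthetase complex. Of its 20 genes tested, 3 synthetases (Cars, Eprs and Iars) were higher, and the synthetase Dars and the scaffold Aimp2, listed at 0 in the KO library, were lower. This was 25.0% of the list, close to the 27.3% of all genes tested. With at least 1 FPKM in both libraries, Eprs had 1.14 FPKM in the WT library and 7.98 FPKM in the KO library, Iars had 3.84 FPKM and 14.7 FPKM, and Dars had 17.2 FPKM and 5.05 FPKM. The list of other elongation and termination factors had 11 genes tested, of which 3 were higher and 2 lower, or 45.5% beside 27.3% of all genes, none of them with at least 1 FPKM in both libraries. The genes past 3-fold were not factors themselves. Dph6, Dnajc24, Dph2 and Dph3 serve the synthesis of diphthamide, the modified histidine of eEF2, and Eef1e1 encodes a scaffold of the synthetase complex. The factors Etf1, Gspt1, Hbs1l, Pelo and Eefsec were all short of 3-fold, and Etf1, the release factor, had 81.8 FPKM and 68.7 FPKM. Of the 6 mitochondrial translation factors tested, 1 was higher and 2 were lower, each listed at 0 in 1 library, or 3 of 6 past 3-fold, beside 27.3% of all genes. Their median difference was −0.81. With a mean of at least 5 FPKM it was 1.06, from Mtif2 and Tufm only. Mtif2 was listed at 0 in the WT library and had 10.9 FPKM in the KO library, a difference of 3.58. Tufm, the mitochondrial elongation factor, had 10.3 FPKM and 3.11 FPKM, a difference of −1.46, short of 3-fold on this scale.

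**Figure D4:**
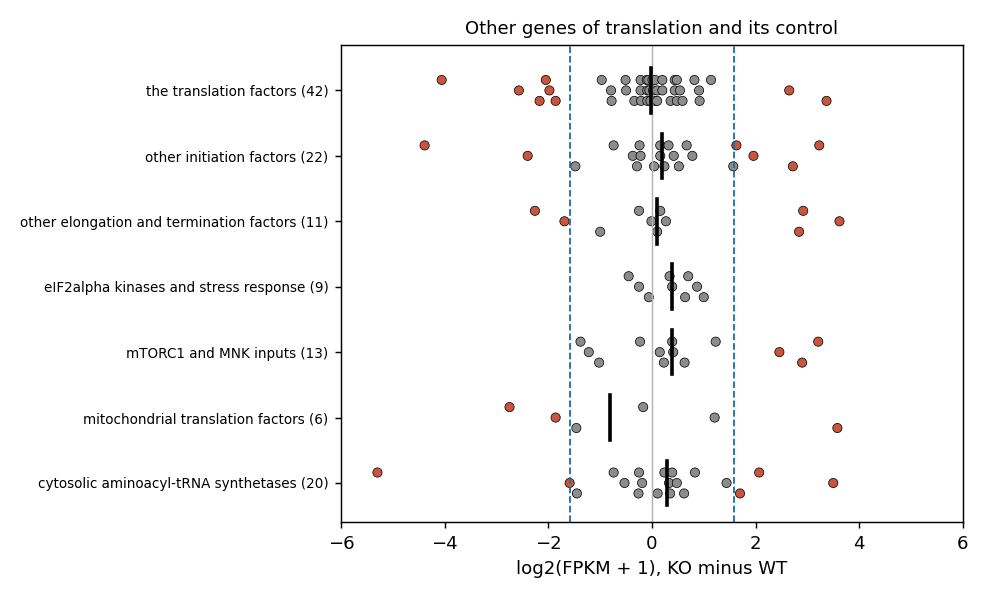
Difference as log2(FPKM + 1), KO minus WT, of the 42 translation factors and of 6 lists of other genes of translation, with the number tested in parentheses. Black bars are medians, dashed lines mark 3-fold and red points lie past it. No gene of the stress response list is red, and each of the other lists has red points.

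Over the whole set, the members made up 0.943% of the summed FPKM in the WT library and 0.963% in the KO library. The libraries were shallow, at an estimated 5860000 fragments for WT and 7470000 for KO. At a length of 2 kb, a count of 0 allows up to 0.256 FPKM and 0.201 FPKM, taken as 3 fragments. Hif1a had 30.4 FPKM in the WT library and 21.0 FPKM in the KO library, a value over all its exons that does not measure the floxed part by itself. Apoe, labelled -/- in both genotypes, had 94.3 FPKM and 117 FPKM, so its RNA was not absent, and which part of the gene gave these fragments was not tested. The sort antigens Adgre1 (299 FPKM and 239 FPKM) and Itgam (128 FPKM in both) were present in both libraries.

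Of 12 macrophage markers tested, 0 passed 3-fold, and they summed to 16656 FPKM in the WT library and 16113 FPKM in the KO library. Of the neutrophil markers, 7 of 7 tested were above 0, beside 51.3% of all genes. On the log2(FPKM + 1) scale, 4 of these were short of 3-fold. The 3 past it (S100a9, Ngp and Mpo) stood beside 13.6% of all genes that were higher. With at least 1 FPKM in both libraries it was 1 of 4, S100a9, beside 5.66% of all genes. Ngp, Mpo and Retnlg reached 1 FPKM in the KO library only. The neutrophil markers summed to 158 FPKM in the WT library and 523 FPKM in the KO library, mostly from S100a8 and S100a9. Camp, Ltf and Elane were listed at 0 in both. Fibroblast markers summed to 43.2 FPKM and 84.3 FPKM, with 5 of 5 tested above 0, beside 51.3% of all genes. Of these, 2 were higher past 3-fold (Col1a2 and Pdgfra, both under 1 FPKM in the WT library), beside 13.6% of all genes that were higher. With at least 1 FPKM in both libraries, 0 of 3 fibroblast markers were past it. The adipocyte markers summed to 101 FPKM and 103 FPKM, nearly all from Pnpla2 and Lipe. Cfd was listed at 0 in the WT library and had 7.11 FPKM in the KO library, Lep was listed at 0 and had 1.6 FPKM, and Adipoq, Plin1 and Retn were listed at 0 in both. All 4 T cell markers in the table were also listed at 0 in both. Of the B cell markers, Cd79b was listed at 0 in the WT library and had 5.52 FPKM in the KO library. Cd79a went the other way, at 2.5 FPKM and 0.222 FPKM, an 11.3-fold plain ratio. Its difference of −1.52 was short of 3-fold only on the log2(FPKM + 1) scale. Of the dendritic markers, Zbtb46 was listed at 0 and had 9.45 FPKM. Xcr1 was lower at 1.65 FPKM and 0.0588 FPKM, and its difference of −1.33 was likewise short of 3-fold only on that scale. Cd209a was nearly level at 122 FPKM and 131 FPKM. The mesothelial marker Upk3b was listed at 0 and had 7.84 FPKM, and Msln, Krt19, Lrrn4 and Wt1 were listed at 0 in both. Of 5 endothelial markers tested, 3 were above 0 and 2 below, with a median difference of 0.1. Tie1 alone passed 3-fold, at 4.12 FPKM and listed at 0 in the KO library, and 0 of 3 did with at least 1 FPKM in both libraries. The part of other cells in the differences of the translation factors was not tested. In sorted bulk samples such as these, fewer cells of a kind and less RNA in each cell cannot be told apart.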

How the data were processed

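Poly(A) RNA of sorted ATM was fragmented, copied with random hexamers, amplified by 18 PCR cycles and sized at 200 to 500 bp. The authors deposited 1 table of FPKM, that is, fragments divided by transcript length and by mapped fragments, and no counts. The submitters' processing notes name CASAVA 1.8.2, TopHat2 2.0.9, Cufflinks 2.2.1 and mm9, and the annotation is not given in the sources used here. The mutant column was taken as KO, the other library being WT. Fully repeated rows were dropped and other rows of an identifier were summed. Symbols, coordinates and lengths (median over basic coding transcripts) came from GENCODE M21 (GRCm38), and promoters from RefSeq.

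Genes with at least 1 FPKM in 1 library were compared as log2(FPKM + 1), which understates changes of low genes, at 3-fold. With 1 library per genotype no test was possible. Depth was estimated from the smallest recurring FPKM per kilobase (0.171 in WT at 18 genes, with 3 below it, and 0.134 in KO at 20 genes). Fragment numbers are therefore estimates, and intervals (95%, Clopper-Pearson) cover counting error only. They take the fragments as independent and the estimated depth as exact. Coding sequences were aligned globally, in place of a planned comparison of proteins.

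All 44 members are named, with pathway genes past 3-fold at 1 FPKM or more in both libraries and genes whose role is described. The members and lists were chosen with earlier results of these data known. Alternatives to the pseudocount, filter, scaling, threshold and repeated rows were run, and the measures were tested on simulated data. Python 3.11.15, pandas 2.3.3 and SciPy 1.17.1 were used.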

Additional observations from a re-analysis of the deposited data

How the results depend on the processing

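Both higher members and all 6 lower members stayed past 3-fold, in the same direction, under each alternative that kept them. A filter of at least 1 FPKM in both libraries and the plain FPKM ratio left out Eif2b4, and a mean of at least 5 FPKM left out Eif2b5. A 2-fold threshold on the log2(FPKM + 1) scale added Eif3l alone, for 9 members or 21.4%, beside 45.6% of all genes. The median over the members ranged from −0.04 to 0.03. The median of eIF2B moved to −3.06 with a mean of at least 5 FPKM, where fewer subunits were tested. Of single genes, the difference of Eif2b4 grew to −7.30 and −10.62 and that of Eif2b5 to −2.66 and −2.76 at pseudocounts of 0.1 and 0.01. The share of members past 3-fold was below that of all genes by most alternatives (17.5% beside 18.1% with a mean of at least 5 FPKM), and above it with no filter (18.6% beside 13.8%) or with 1 FPKM in both libraries (17.1% beside 11.5%). Of the other genes of the pathway, 5 were higher and 1 lower with at least 1 FPKM in both libraries, 7 higher and 3 lower with a mean of at least 5 FPKM, and 19 higher and 14 lower at 2-fold. The median of the mitochondrial factors, −0.81 as reported, was −0.08 with no filter. Scaling shifted the KO values by −0.03 to 0.04 on the log2 scale. No paired analysis was possible because WT and KO have 1 library each, which also leaves no replicate to omit. Depth limits the members of low level most, as in Dhps and Dohh, at about 16 and 18 fragments in the WT library, and Eif2b5, at about 19 in the KO library.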

Other observations

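Enzymes that methylate the elongation factors were looked at after their values had been seen, as a list of 7 genes, all in the table, of which 4 were tested. Eef1akmt4, a lysine methyltransferase of eEF1A, was listed at 0 in the WT library and had 21.7 FPKM in the KO library. Eef2kmt, which methylates eEF2, had 0.322 FPKM in the WT library and 11.8 FPKM in the KO library, a difference of 3.27. N6amt1, which methylates the release factor eRF1, had 5.72 FPKM in the WT library and was listed at 0 in the KO library. Eef1akmt1, a further eEF1A methyltransferase, had 9.37 FPKM and 5.92 FPKM, a difference of −0.58. The first 3 genes passed the filter only through the library where they are high, and with at least 1 FPKM in both libraries Eef1akmt1 alone was tested and was short of 3-fold. Eef1akmt2, Eef1akmt3 and Mettl13 were listed at 0 in both libraries.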
